A study of Mus musculus with 2 samples.

Results

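Glucagon (Gcg), somatostatin (Sst), pancreatic polypeptide (Ppy), peptide YY (Pyy), transthyretin (Ttr), retinol-binding protein 4 (Rbp4) and ghrelin (Ghrl) are hormone and carrier transcripts. They are grouped here as non-beta transcripts, although Ttr was also higher in beta cells than in non-endocrine cells. Their 7 rows, of 31053 genes in all, were taken by symbol from single-cell count matrices of pancreatic islets, and each symbol matched 1 row. The islets came from wild-type C57BL/6J female mice. One library was made from virgin mice and the other from multipara mice, which entered the study at 9 weeks of age, went through 3 successive pregnancies and were sampled 3 weeks after the last delivery, and the virgin mice were matched to them in age. Freshly isolated islets were dissociated with trypsin, and libraries were made with Chromium 3′ v3.1 chemistry, in which each captured RNA molecule is counted once by a unique molecular identifier (UMI). The comparison asked how islet cells differ after repeated pregnancies. With 1 library per group, no difference below has a replicate check, the statements compare these 2 libraries and not the conditions, and the labels do not say how many mice went into a library.

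An islet holds several endocrine cell types, each of which releases its own peptide hormone. Beta cells secrete insulin, alpha cells secrete glucagon, which raises hepatic glucose output, delta cells secrete somatostatin, which restrains both, and PP cells secrete pancreatic polypeptide, which acts on the gut and on appetite. Peptide YY belongs to the same peptide family as pancreatic polypeptide, ghrelin is the hormone of the rare epsilon cell and of the stomach, and transthyretin and retinol-binding protein 4 are plasma carriers of thyroid hormone and of retinol that islet cells also make. Because islet hormone transcripts are among the most abundant in the tissue, RNA released from broken cells during dissociation enters droplets of every kind, and a few UMIs of a hormone do not show that a cell makes it.

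Ppy and Pyy are neighbours in the genome, and the other members lie on other chromosomes (GRCm38, GENCODE M21). Ppy (ENSMUSG00000017316) spans chr11:102099930-102101319 and Pyy (ENSMUSG00000017311) spans chr11:102106676-102107832, both on the minus strand and 5356 bases apart. Gcg (ENSMUSG00000000394) spans chr2:62474530-62483650, Sst (ENSMUSG00000004366) spans chr16:23889573-23890958, Rbp4 (ENSMUSG00000024990) spans chr19:38116629-38125281 and Ghrl (ENSMUSG00000064177) spans chr6:113716119-113719880, all on the minus strand. The 250 bases before the RefSeq start site (GRCm38.p6) are shown for the neighbours Ppy and Pyy and for Gcg. The levels of Ppy and Pyy were correlated across the classes described below, and both were also found in cells led by Gcg. RefSeq promoters were matched for 6 of the 7 genes. Capitals mark the letters TATAAA on either strand (a TATA box motif). TGACGTCA (the cAMP response element) was also searched on both strands and was not found in any of these windows.
Ppy, chr11:102101320-102101569, minus strand: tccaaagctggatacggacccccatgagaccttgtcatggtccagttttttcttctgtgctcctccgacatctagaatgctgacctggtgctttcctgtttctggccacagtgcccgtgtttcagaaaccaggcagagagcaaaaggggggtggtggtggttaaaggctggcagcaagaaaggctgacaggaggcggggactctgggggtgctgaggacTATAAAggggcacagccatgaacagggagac
Pyy, chr11:102107833-102108082, minus strand: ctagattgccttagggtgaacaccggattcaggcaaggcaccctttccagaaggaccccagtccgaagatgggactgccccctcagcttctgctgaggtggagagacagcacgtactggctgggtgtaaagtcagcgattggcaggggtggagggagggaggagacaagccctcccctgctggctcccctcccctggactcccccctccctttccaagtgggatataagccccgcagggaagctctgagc
Gcg, chr2:62483654-62483903, minus strand: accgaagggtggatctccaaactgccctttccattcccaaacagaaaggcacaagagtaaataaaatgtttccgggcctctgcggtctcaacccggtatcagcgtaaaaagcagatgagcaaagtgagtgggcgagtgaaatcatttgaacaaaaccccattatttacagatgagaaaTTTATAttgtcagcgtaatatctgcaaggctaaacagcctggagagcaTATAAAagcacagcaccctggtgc
The Ppy window held TATAAA once, starting 31 bases before the start site. The Gcg window held it 24 bases before the start site and again, on the other strand, 72 bases before it. The Pyy window held neither motif. Among 32851 RefSeq promoter windows of the same length, 12.4% held TATAAA and 1.55% held TGACGTCA, so the presence of TATAAA in a window is not particular to these genes.

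In the virgin library 5463 barcodes gave 94853806 UMIs, and 5075 barcodes gave 82503776 in the multipara library. Of these barcodes, 4330 (79.3%) and 3330 (65.6%) were kept after the filter on genes, UMIs and mitochondrial share and the removal of doublets (droplets with more than 1 cell). The libraries shared 7 barcode sequences, none of them a beta cell in both. Cells were classed by their UMIs alone. Beta cells had at least 20% of UMIs from Ins1 and Ins2 with no limit on other hormones (1831 virgin and 1568 multipara cells, median depths 30343 and 32573.5 UMIs). Hormone-led cells had at least 5% of UMIs from 1 of the 5 other hormones, more than from any other and more than from insulin. Gcg led 1116 and 703 cells, Sst 357 and 318, Ppy 108 and 110, and Pyy 13 and 7. Non-endocrine cells were those with at least 3 markers of T, B, macrophage, endothelial, mesenchymal, acinar or ductal cells (774 and 479 cells, median depths 4176 and 4725 UMIs). The hormone that chose a class is given there as a description only.

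The classes held the markers of their cell types, but not every list was specific to its class. At least 2 of 5 alpha cell markers (Irx1, Irx2, Gc, Slc7a2 and Etv1) were found in 95.6% of virgin and 98.9% of multipara Gcg-led cells, but also in 85.2% and 91.8% of Ppy-led and 55.7% and 58.5% of Sst-led cells. At least 2 of 4 delta cell markers (Hhex, Ghsr, Spock3 and Ffar4) were found in 68.9% and 68.2% of Sst-led cells, against 3.23% and 2.28% of Gcg-led and 12.96% and 6.36% of Ppy-led cells. The PP cell list (Tspan8, Fxyd6, Sertm1, Vsig1 and Folr1) did not separate Ppy-led from Sst-led cells, since at least 2 of its genes were found in 90.7% and 90.9% of Ppy-led cells and in 94.96% and 89.3% of Sst-led cells, where Tspan8 led and Vsig1 was at 0. The cells are therefore named below by the hormone that led them.

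Levels are given as CPM, in which the UMIs of a gene are scaled by the total of its class, and since 3′ UMIs count molecules they are not scaled by gene length. Gcg was at 361535 CPM in virgin and 380205 CPM in multipara Gcg-led cells, Sst at 181510 and 197274 CPM in Sst-led cells, and Ppy at 391533 and 420717 CPM in Ppy-led cells. Pyy, which led almost no cells, was spread over all 3 of these classes. Among these classes it was at 110924 and 113598 CPM in Ppy-led, 44488 and 37913 CPM in Sst-led and 19349 and 21347 CPM in Gcg-led cells. Ttr (ENSMUSG00000061808, chr18:20665280-20674321, plus strand) was highest in Gcg-led cells, at 37191 and 35876 CPM, against 3176 and 3092 CPM in Ppy-led and 271 and 228 CPM in Sst-led cells. Among the same classes Rbp4 was highest in Sst-led cells, at 5374 and 5792 CPM, followed by Gcg-led cells at 1228 and 878 CPM and Ppy-led cells at 533 and 503 CPM. In the 13 and 7 Pyy-led cells Pyy was at 182310 and 180357 CPM, Rbp4 at 1260 and 1371 CPM and Ttr at 4893 and 15633 CPM. The order of the other 3 classes was the same in both libraries for Pyy, Ttr and Rbp4, and each step was wider than the counting error.

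**Figure D1:**
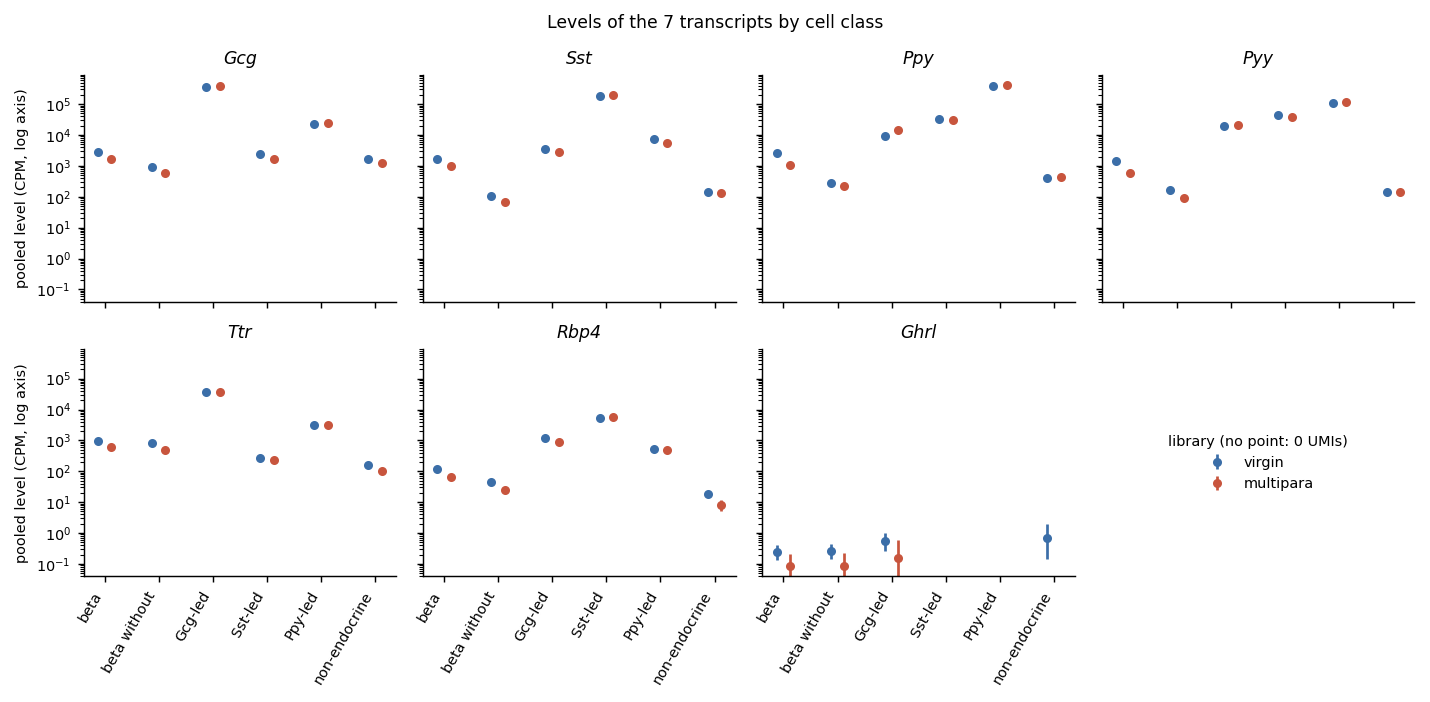
Pooled level (CPM, log axis) of the 7 transcripts in 6 sets of cells, with blue points for the virgin and red points for the multipara library and bars for exact Poisson 95% intervals, where "beta without" means beta cells with each of the 5 other hormones under 1% of UMIs. Among the sets drawn, Gcg, Sst and Ppy peaked in the cells they led, Pyy in Ppy-led cells at 110924 and 113598 CPM, Ttr in Gcg-led cells and Rbp4 in Sst-led cells, while Ghrl stayed under 1 CPM.

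Ghrelin was almost absent. No kept cell was led by Ghrl in either library (95% Clopper-Pearson upper bounds 0.0852% of virgin and 0.111% of multipara cells), and no beta, hormone-led or non-endocrine cell held more than 1 Ghrl UMI. Virgin beta cells held 13 Ghrl UMIs and multipara beta cells 4, and Gcg-led cells held 10 and 2. Sst-led cells held none, where a floor of 3 counts would be a level of 0.791 and 0.953 CPM.

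In beta cells, all 7 transcripts were lower in the multipara library by more than 1.5-fold in the summed counts. Of 14167 genes with at least 10 UMIs, 11.2% were lower by that much and 3.8% higher. Among genes at 50 CPM or more, where counting error is small, 6 of 6 measured members were lower against 1.12% of 1251 genes, while 0.879% of those genes and no member were higher. The median log2 ratio (multipara over virgin) was -0.93 over the 7 members and -0.11 over all genes tested. Brackets below hold 95% intervals, exact except for the ratios of levels per Gcg UMI, where they are approximate. Those on UMIs cover counting error only. Those on shares of cells cover only the drawing of cells from 1 library, taken as independent.

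In the summed counts, and leaving out Ghrl with its few UMIs, the peptide hormones of the pancreatic polypeptide family showed the widest gaps. Pyy was at 1425 CPM in virgin and 582 CPM in multipara beta cells, a log2 ratio of -1.29 (-1.31 to -1.27). Ppy was at 2548 and 1047 CPM, a log2 ratio of -1.28 (-1.30 to -1.27). Sst was at 1668 and 979 CPM (log2 ratio -0.77, -0.79 to -0.75). Gcg was at 2817 and 1671 CPM (-0.75, -0.77 to -0.74). Of the carriers, Rbp4 was at 122 and 63.7 CPM (-0.93, -0.996 to -0.870) and Ttr at 967 and 614 CPM (-0.66, -0.68 to -0.64). Ghrl, with 17 UMIs in all, had a log2 ratio of -1.52 with an interval that included 0 (-3.59 to 0.18). By comparison, insulin and amylin, the peptides that beta cells co-secrete, were nearly level: Ins1 at 152824 and 167966 CPM, Ins2 at 409298 and 412867 CPM and Iapp at 43140 and 43696 CPM.

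The summed counts came mostly from few cells. In the virgin library the 61 beta cells with Sst at 1% or more of their UMIs held 93.3% of all Sst UMIs of beta cells, and in the multipara library 32 such cells held 92.99%. The cells with Ppy at 1% or more (81 virgin, 41 multipara) held 86.1% and 74.6% of the Ppy UMIs, those with Pyy (80 and 29) held 78.7% and 69.7% of the Pyy UMIs, and those with Gcg (40 and 69) held 67.3% and 64.6% of the Gcg UMIs. Ttr was spread differently, with 12.9% and 12.4% of its UMIs in the 9 and 7 cells where it reached 1%. Rbp4 reached 1% in no beta cell, its highest value being 0.542% of a virgin and 0.486% of a multipara cell.

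The median beta cell told the libraries apart for some members only. The median level of Ppy was 2.14 UMIs per 10000 in virgin and 2.11 in multipara beta cells, a log2 ratio of -0.02, although its summed level differed by 2.43-fold. The median level of Pyy was 0.712 and 0.537 per 10000 (-0.41), and that of Sst 0.759 and 0.511 (-0.57). For Gcg, in contrast, the median was lower along with the sum, at 9.15 and 5.91 per 10000 (-0.63), and for Ttr the median differed by more than the sum, at 7.20 and 4.29 per 10000 (-0.75). The median of Rbp4 was 0 in both libraries. With each cell weighted equally the log2 ratio of Gcg turned to 0.18, and in cells with at least 40% insulin it was -0.35 and that of Ppy -0.40. Between the 10th and the 90th percentile, virgin beta cells ranged from 5.70 to 16.7 Gcg UMIs per 10000 and from 3.21 to 14.9 Ttr UMIs per 10000, and multipara beta cells from 3.397 to 21.8 and from 1.47 to 11.1, so single cells of the libraries overlapped widely.

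**Figure D2:**
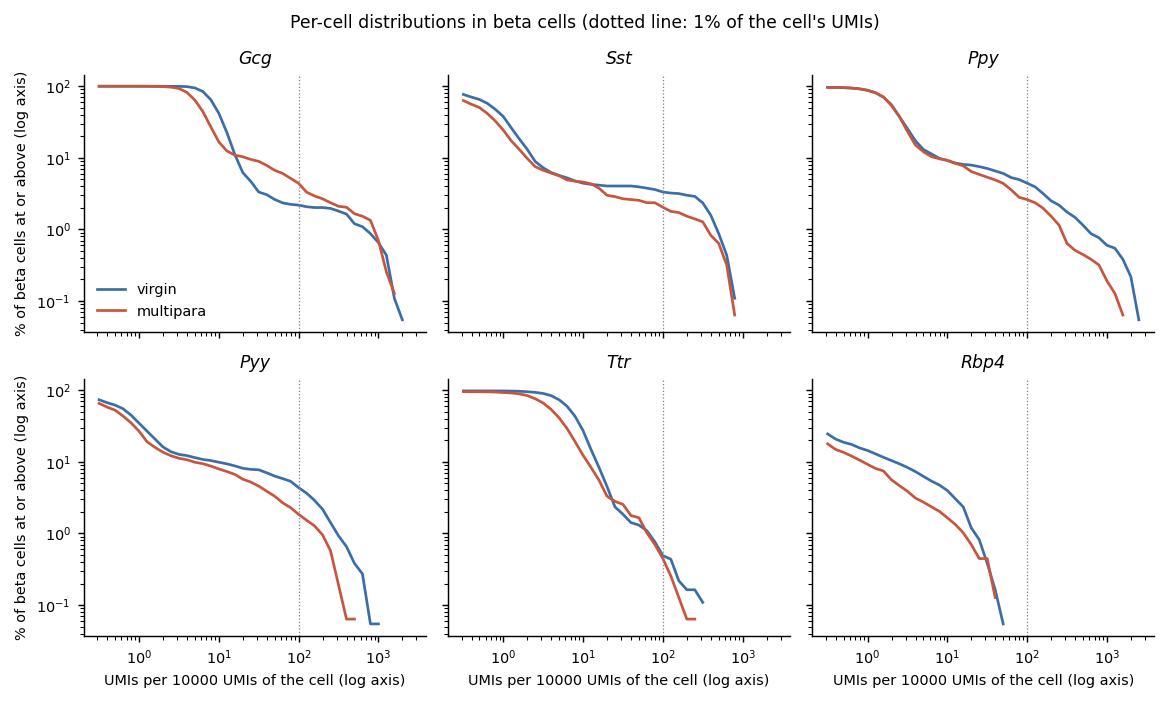
Share of beta cells (%, log axis) at or above each level of a transcript (UMIs per 10000 UMIs of the cell, log axis) in the virgin (blue) and multipara (red) libraries, with a dotted line at 1% of UMIs. The Ppy curves lie together at low levels, with medians of 2.14 and 2.11, and part above them, whereas the Ttr curves are apart around their medians of 7.20 and 4.29; the Gcg curves cross.

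When beta cells with any of the 5 other hormones at 1% or more were left out, 1683 virgin and 1461 multipara cells remained and Ppy no longer passed. Ppy was then at 276 and 228 CPM, a log2 ratio of -0.27 (-0.31 to -0.24). Pyy kept -0.79 (-0.84 to -0.74), Rbp4 -0.88 (-0.98 to -0.77), Ttr -0.67 (-0.69 to -0.64), Gcg -0.66 (-0.68 to -0.64) and Sst -0.59 (-0.66 to -0.53). That was 6 of 7 members past 1.5-fold with Ghrl, against 10.1% of 13910 genes, and no member was higher, against 4.1% of genes.

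**Figure D3:**
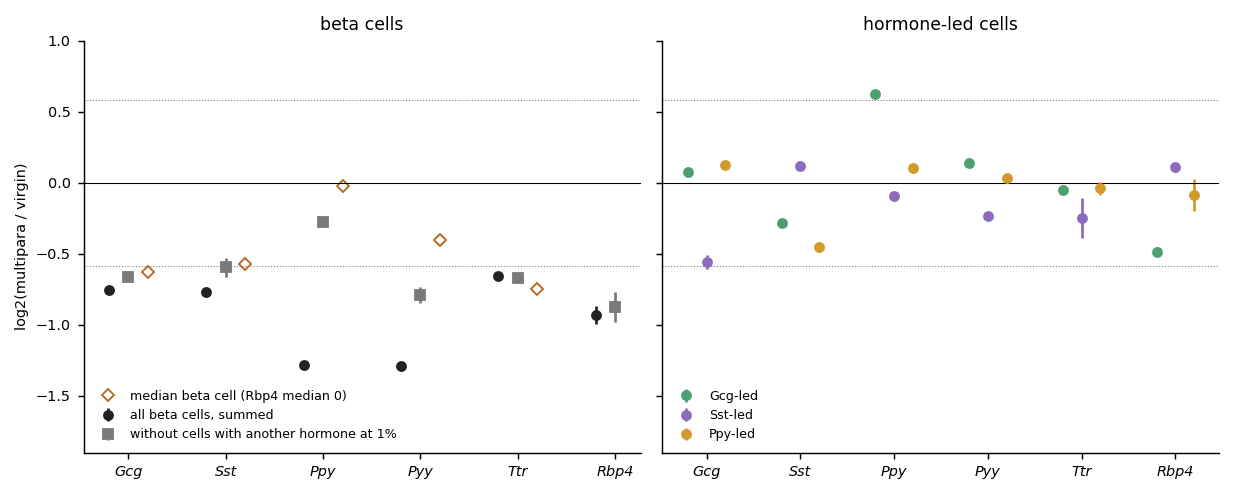
The log2 ratio of multipara over virgin for 6 transcripts (Ghrl is left out) in beta cells (left panel: summed over all beta cells, summed without cells with another hormone at 1% or more, and the ratio of median cells) and in hormone-led cells (right panel), with exact 95% counting intervals on the sums and dotted lines at 1.5-fold. The 3 measures lie close together for Gcg, Sst and Ttr and apart for Ppy, at -1.28, -0.27 and -0.02, and for Pyy, at -1.29, -0.79 and -0.41, and in hormone-led cells only Ppy in Gcg-led cells passes 1.5-fold.

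Beta cells with another hormone at 1% or more of their UMIs made up 148 of 1831 virgin beta cells (8.08%, 6.88 to 9.43) and 107 of 1568 multipara beta cells (6.82%, 5.63 to 8.19). Their insulin share was lower, with medians of 38.02% and 38.6% of UMIs against 56.8% and 57.9% in the other beta cells. In the virgin library 85 of the 148 cells held at least 2 such hormones, and in the multipara library 47 of the 107. The most common sets among virgin cells were Gcg alone (32 cells), Ppy with Pyy (29), Sst with Ppy and Pyy (22) and Sst with Pyy (15). Among multipara cells they were Gcg alone (46), Gcg with Ppy (13), Sst alone (9) and Sst with Ppy and Pyy (7).

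The accompanying transcripts of these beta cells followed the hormone. In the 40 virgin beta cells with Gcg at 1% or more, median Ttr was 63.0 UMIs per 10000, against 7.22 in beta cells without another hormone, and median Rbp4 was 2.07. In the 61 with Sst at 1% or more, median Ttr was 5.23 and median Rbp4 14.8, against 0 without another hormone, and Pyy also reached 1% in 38 of them. In the multipara library the 69 cells with Gcg had a median Ttr of 30.6, against 4.15, and a median Rbp4 of 0. The 32 cells with Sst had a median Rbp4 of 13.3. These pairings, of Ttr with Gcg and of both Rbp4 and Pyy with Sst, were those seen in the hormone-led cells. Markers of other cell types moved with them too. At least 2 alpha markers were found in 66.2% of the virgin cells with another hormone and 19.8% of those without, at least 2 delta markers in 29.7% and 0.416%, and at least 2 genes of the PP list in 83.8% and 44.4%. In the multipara library the shares were 39.3% and 13.9%, 22.4% and 0.0684%, and 42.1% and 31.2%. The median Scrublet doublet score was 0.130 and 0.0453 in the virgin and 0.0817 and 0.0405 in the multipara library. The part of doublets and of carried-over RNA in these cells was not tested.

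Depth split the cells with another hormone differently in the libraries. Virgin cells with another hormone had a median of 27840 UMIs, close to the 30571 of the others, but multipara ones had 11791 against 33120. The 46 multipara cells with Gcg alone had a median of 697 UMIs and the 13 with Gcg and Ppy 657 UMIs. Among beta cells under 5000 UMIs, Gcg reached 1% in 10 of 128 virgin cells (7.81%, 3.81 to 13.9) and in 48 of 163 multipara cells (29.4%, 22.6 to 37.1). Among those with at least 5000 UMIs, a hormone other than insulin reached 1% in 134 of 1703 virgin cells (7.87%, 6.63 to 9.25) and 59 of 1405 multipara cells (4.20%, 3.21 to 5.38). In these deeper cells, Ppy reached 1% in 78 virgin (4.58%) and 25 multipara cells (1.78%, 1.15 to 2.62), Pyy in 78 (4.58%) and 28 (1.99%, 1.33 to 2.87), Sst in 56 (3.29%) and 30 (2.14%, 1.45 to 3.03) and Gcg in 30 (1.76%) and 21 (1.49%, 0.928 to 2.28). The intervals did not overlap for Ppy and Pyy and did for Gcg and Sst. They take the cells of 1 library as independent draws, so they do not compare the conditions.

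Hormone transcripts carried over into cells that should lack them gave the background for all of these levels. In non-endocrine cells the 5 hormones together took 0.237% (0.233 to 0.242) of virgin and 0.199% (0.193 to 0.204) of multipara UMIs. Gcg led, at 1693 and 1273 CPM, followed by Ppy at 392 and 440, Sst at 143 and 133 and Pyy at 143 and 140 CPM. Insulin took 0.996% and 2.34% of the UMIs of the same cells. At least 1 Gcg UMI was found in 99.2% and 99.4% of non-endocrine cells, at the median depths above, against 99.9% and 100% of beta cells.

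The make-up of the carried-over hormones was compared among the non-endocrine classes of a library. Gcg made up between 69.4% and 72.4% of the 5 hormones' UMIs over the T, B, macrophage, endothelial and mesenchymal cells of the virgin library and between 62.2% and 65.9% over those of the multipara library. Ppy made up between 15.99% and 17.3% and between 20.5% and 23.9%. Sst made up between 5.46% and 6.39% and between 5.56% and 8.38%, and its share in multipara macrophages (8.38%, 6.97 to 9.96) and endothelial cells (5.99%, 5.16 to 6.90) differed beyond counting error. The make-up over all kept cells, hormone-led cells included, was 68.5% Gcg and 13.8% Ppy in the virgin and 63.1% and 18.2% in the multipara library. In beta cells with the 5 hormones under 1% the shares were 63.3% and 60.2% Gcg, 18.7% and 23.3% Ppy, 6.99% and 6.96% Sst and 10.99% and 9.56% Pyy. In both libraries Gcg was thus below, and Pyy above, the range of the non-endocrine classes. In the multipara library the intervals of T cells included both beta cell values (Gcg 59.2 to 68.4, Pyy 5.76 to 11.1).

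**Figure D4:**
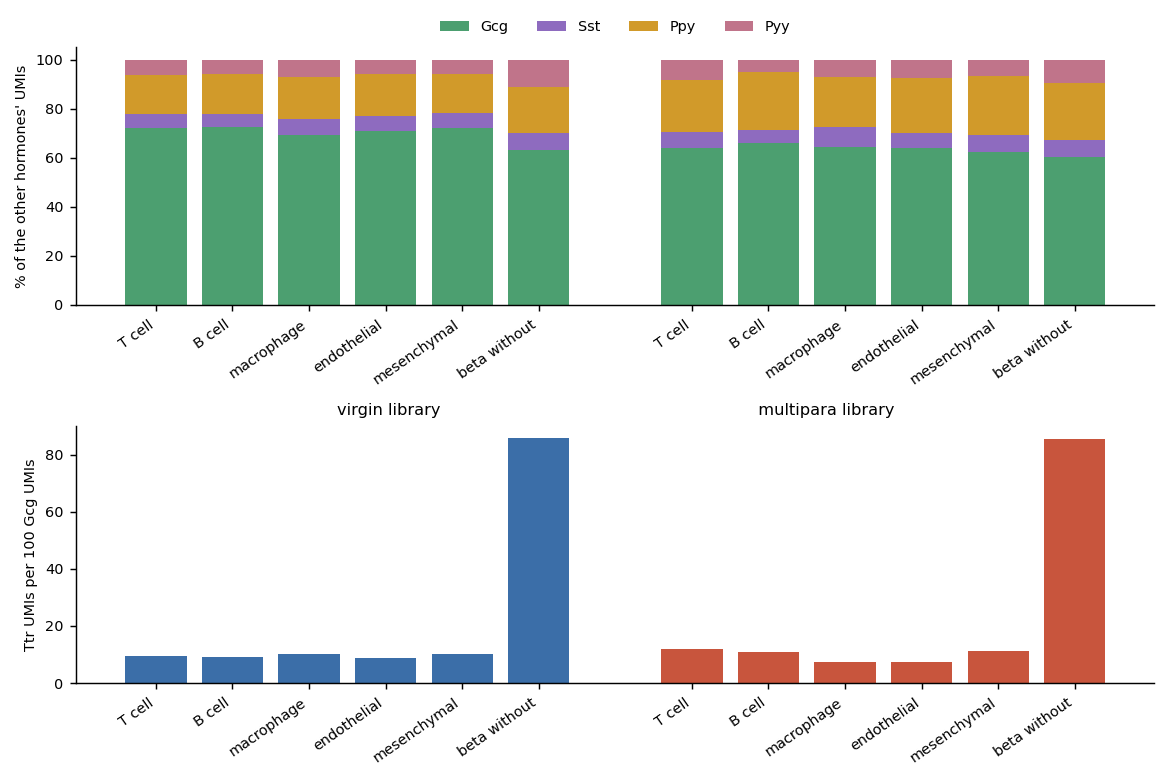
Top, share (%) of Gcg, Sst, Ppy and Pyy among the UMIs of the 5 other hormones in 5 non-endocrine classes and in beta cells with each hormone under 1% ("beta without"), virgin library on the left and multipara on the right; bottom, Ttr UMIs per 100 Gcg UMIs in the same cells, with no error bars drawn. Gcg made up 62.2% to 72.4% in every non-endocrine class, and Ttr stood at 85.9 and 85.5 per 100 Gcg UMIs in beta cells against 7.20 to 12.0 elsewhere.

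The level per Gcg UMI was then compared between beta cells and non-endocrine cells. The result for the hormones depends on which beta cells are taken. Over all beta cells, Sst was at 59.2 UMIs per 100 Gcg UMIs in the virgin and 58.6 in multipara cells, against 8.46 and 10.4 in non-endocrine cells. Pyy was at 50.6 and 34.8 against 8.46 and 10.99, and Ppy at 90.5 and 62.7 against 23.2 and 34.5. Ttr was at 34.3 and 36.7 against 9.62 and 8.26, and Rbp4 at 4.32 and 3.81 against 1.09 and 0.635. All 5 were above the non-endocrine value.

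In beta cells with the 5 hormones each under 1% the hormones are capped by that choice, while Ttr and Rbp4 are not. Ttr there was at 85.9 (virgin) and 85.5 (multipara) UMIs per 100 Gcg UMIs, which was 8.93 times (8.26 to 9.66) and 10.4 times (9.19 to 11.7) the non-endocrine value. Rbp4 per Gcg was 4.37 times (3.49 to 5.47) and 6.45 times (4.26 to 9.75) that of non-endocrine cells, with 39 of the 80 Rbp4 UMIs of virgin non-endocrine cells in mesenchymal cells. Without the mesenchymal cells the Rbp4 ratios were 7.28 (5.34 to 9.93) and 6.86 (4.40 to 10.7). The capped hormones were still somewhat higher per Gcg than in non-endocrine cells, Pyy by 2.05 times (1.89 to 2.24) and 1.44 times (1.30 to 1.61), Ppy by 1.28 times (1.21 to 1.35) and 1.12 times (1.05 to 1.20), and Sst by 1.30 times (1.20 to 1.42) and 1.11 times (0.989 to 1.24). As a plain level, Ttr was at 801 and 505 CPM in these beta cells against 163 and 105 CPM in non-endocrine cells. The plain levels of the hormones, with insulin counted in the same total, were mostly lower in these beta cells. Gcg was at 933 and 590 CPM against 1693 and 1273, and Sst at 103 and 68.2 against 143 and 133. Ppy was at 276 and 228 CPM against 392 and 440. Pyy was at 162 CPM against 143 in the virgin and 93.7 against 140 in the multipara library.

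Cells of like depth gave the same direction for Ttr. Among cells of 10000 to 20000 UMIs, the summed level of Ttr was 8.96 per 10000 UMIs in 120 virgin beta cells without another hormone at 1% and 1.19 in 73 virgin non-endocrine cells, and 4.67 in 99 and 0.552 in 46 multipara cells. Rbp4 was at 1.21 against 0.112 and at 0.884 against 0.0669. Gcg was at 10.5 against 10.8 and 7.89 against 8.88. Ppy was at 4.15 against 2.79 and 3.89 against 3.19, and Pyy at 3.17 against 1.04 and 3.86 against 0.936. Sst was at 0.910 against 0.941 in the virgin and 2.49 against 1.12 in the multipara library. For Rbp4, Ppy, Pyy and Sst the gap depended on the depth taken. Among cells of 5000 to 10000 UMIs, Ttr was at 8.37 against 1.60 and 5.69 against 0.888. Rbp4 there was at 0.323 against 0.307 in the virgin and 0.219 against 0.0996 in the multipara library. Multipara beta cells were lower there for Ppy (2.14 against 3.89), Pyy (0.700 against 1.33) and Sst (0.612 against 1.42). Virgin ones were higher, at 3.73 against 3.53, 2.59 against 1.42 and 3.47 against 1.36. The level of Gcg per 10000 UMIs was higher in shallower cells of both kinds, at 26.4 in virgin beta cells and 33.9 in virgin non-endocrine cells under 2500 UMIs.

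The share of cells with a UMI was also set against the non-endocrine share after each cell was thinned to 1000 UMIs, with 13 virgin and 80 multipara beta cells left out as too shallow. Ttr was found in 51.7% and 38.8% of beta cells and in 17.7% and 12.4% of non-endocrine cells, and Rbp4 in 7.54% and 3.97% against 1.88% and 0.873%. Gcg was found in 63.1% and 46.3% of beta cells against 82.8% and 73.8%, Ppy in 26.4% and 23.7% against 37.0% and 40.8%, Sst in 11.9% and 8.67% against 14.8% and 14.6%, and Pyy in 16.3% and 11.8% against 15.5% and 14.6%. The beta cells were deeper before thinning, and insulin, at a median of 56.1% and 57.4% of their UMIs, is counted in the same fixed total, so nothing is read from the order of the hormone shares. Before thinning, Ttr was found in 98.2% and 95.8% of beta cells and Rbp4 in 31.6% and 25.3%.

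The background itself moved between the libraries. In non-endocrine cells the log2 ratio of Gcg was -0.41 (-0.47 to -0.35), that of Ttr -0.63 (-0.83 to -0.43) and that of Rbp4 -1.19 (-1.92 to -0.50), while Ppy was at 0.17 (0.06 to 0.27) and the intervals of Sst and Pyy included 0. Ttr and Rbp4 were thus 2 of 6 measured members lower by over 1.5-fold there, against 17.8% of 12726 genes. Of the Rbp4 UMIs of non-endocrine cells, 39 of 80 virgin and 3 of 23 multipara ones were in mesenchymal cells. In T, B, macrophage and endothelial cells alone, Rbp4 took 0.00112% of virgin and 0.000749% of multipara UMIs, a gap just under 1.5-fold. Gcg-led cells made up 25.8% (24.5 to 27.1) of virgin and 21.1% (19.7 to 22.5) of multipara kept cells. The part of these shifts in the beta cell ratios was not tested.

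In Gcg-led cells, Ppy went the other way. It was at 9183 CPM in virgin and 14169 CPM in multipara Gcg-led cells, a log2 ratio of 0.63 (0.62 to 0.64), and was the only 1 of 7 members higher by over 1.5-fold, against 3.69% of 13249 genes. Its median was 5.83 and 13.2 UMIs per 10000, a log2 ratio of 1.18. Ppy reached 1% of UMIs in 171 of 1116 virgin (15.3%) and 156 of 703 multipara cells (22.2%), and Pyy in 41.2% and 51.1%. The cells with Ppy were nearly always cells with Pyy, since 164 of the 171 virgin and 148 of the 156 multipara cells had Pyy at 1% too, whereas of the 460 and 359 cells with Pyy at 1% most had less Ppy. Gcg remained at medians of 31.8% and 34.6% of UMIs in cells with Ppy at 1% and 36.7% and 39.2% in the others.

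The other members of Gcg-led cells did not pass 1.5-fold in the summed counts, Ghrl apart. Ttr, the second most abundant member there, was at 1% or more in 93.5% of virgin and 91.9% of multipara cells, with a log2 ratio of -0.05 (-0.06 to -0.05). Rbp4 was lower, at -0.48 (-0.52 to -0.45), and Sst at -0.28 (-0.30 to -0.27), though the median cell gave -0.79 for Sst and cells with the other hormones under 1% gave -0.73. Pyy was at 0.14 (0.13 to 0.15). Ghrl was the only member lower by over 1.5-fold, on 10 and 2 UMIs and with an interval that included 0 (-5.00 to 0.46), against 9% of genes.

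**Figure D5:**
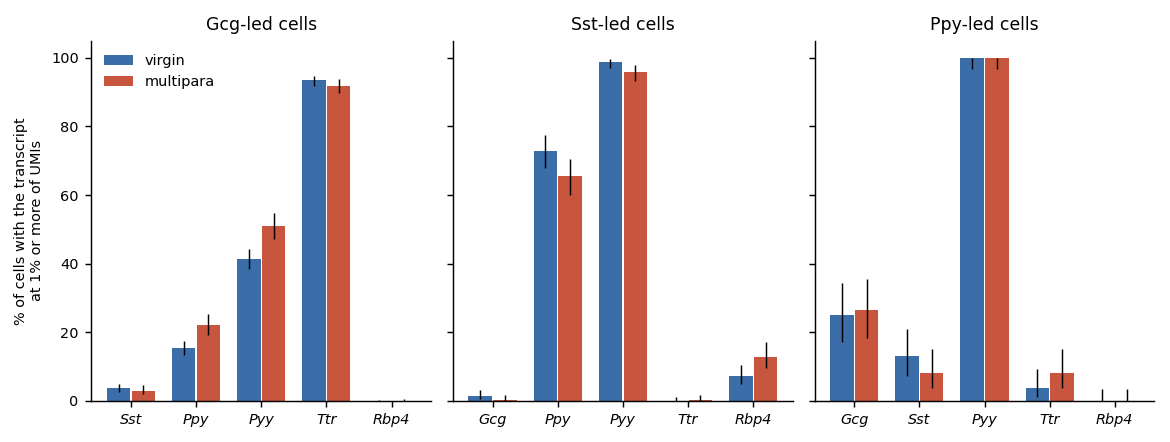
Share (%) of Gcg-led, Sst-led and Ppy-led cells in which each of the other transcripts (Ghrl is left out) reached 1% or more of UMIs, in the virgin (blue) and multipara (red) libraries, with exact 95% Clopper-Pearson intervals. Pyy reached 1% in every Ppy-led cell, in 98.9% and 95.9% of Sst-led cells and in 41.2% and 51.1% of Gcg-led cells.

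Sst-led cells were rich in peptides of the pancreatic polypeptide family. Pyy reached 1% of UMIs in 353 of 357 virgin (98.9%) and 305 of 318 multipara cells (95.9%), and Ppy in 260 (72.8%) and 208 (65.4%). The median Sst-led cell held 17.5% and 19.1% Sst, and 394 and 344 Pyy UMIs per 10000. Rbp4 reached 1% in 26 virgin (7.28%) and 41 multipara cells (12.9%), while no cell of the other classes compared did. Between the libraries Pyy was at -0.23 (-0.24 to -0.22), Ppy at -0.10 (-0.11 to -0.08), Rbp4 at 0.11 (0.08 to 0.14) and Ttr at -0.25 (-0.39 to -0.11) on the log2 scale. None of 6 measured members passed 1.5-fold in either direction, against 8.34% of 11965 genes lower and 5.13% higher. Gcg in these cells, at 2462 and 1673 CPM, was within 1.5 times its level in non-endocrine cells.

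Ppy-led cells all held Pyy. Its share was at least 1% in all 108 virgin and all 110 multipara cells, with medians of 954 and 1076 UMIs per 10000. Gcg also reached 1% in 27 and 29 of them, and these held less Ppy, with medians of 27.1% and 28.3% of UMIs against 43.0% and 47.4% in the other Ppy-led cells, while their Pyy was alike at 9.29% and 10.8% against 9.59% and 10.7%. None of 6 measured members passed 1.5-fold, against 15.2% of 10353 genes lower and 5.8% higher. The 20 Pyy-led cells of both libraries together were too few to compare. They held a median of 1126 and 1406 Pyy UMIs per 10000, and Ppy reached 1% in 10 of 13 and 5 of 7 of them.

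The genes whose level followed each member most closely over the classes were found by likeness. This was the Pearson correlation of log2(CPM + 10) over 18 points (9 classes in 2 libraries), which share their libraries and their background. The genes compared were the 6234 that reached 50 CPM in at least 1 class. Gcg, Sst and Ppy also chose the classes they led, so a gene particular to such a class is like that hormone by this choice. Of the genes named, Aard and Ksr2 peaked near the limit, at 52.6 and 54.3 CPM. Gcg was most like Aard (r = 0.990), Ttr (0.974) and Upk3a (0.971), and Ttr most like Tmsb15l (0.988), Aard (0.982) and Gcg. Sst was most like Stxbp5l (0.993), Hgfac (0.989) and Capsl (0.986). Ppy was most like Pyy (0.973), Folr1 (0.961), a folate receptor, and Spp1 (0.951), which encodes osteopontin. Pyy was most like Calb1 (0.977), which encodes the calcium-binding protein calbindin, Gc (0.977), which encodes the vitamin D-binding protein, and Ppy. Rbp4 was most like Ksr2 (0.975), Gm11837 (0.973) and Kcnk1 (0.973). Ghrl did not reach the level needed.

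Genes of the enzymes that cut and finish these peptides and of the receptors that read them were also counted in beta cells. Of 8 processing and peptide genes (Pcsk1, Pcsk2, Pcsk1n, Cpe, Pam, Scg5, Mboat4 and Dpp4), 7 had enough UMIs and none was over 1.5-fold lower or higher, with a median log2 ratio of -0.10. Of 13 receptor and carrier partner genes, among them the glucagon receptor Gcgr, the somatostatin receptors Sstr1 to Sstr5 and the retinol transporter Stra6, 6 had enough UMIs and none passed, with a median of -0.04. The median over all genes tested was -0.11, and with 11.2% of genes lower and 3.8% higher, lists this short would hold few calls at the share of all genes.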

How the data were processed

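The deposited files hold raw UMI counts of each gene in each barcode; per the labels the authors used Cell Ranger 3.1.0 and GRCm38 (mm10), and their notes list Seurat 3.0. Here, the filter of the study was applied (over 200 and under 6000 genes, under 60000 UMIs, under 10% mitochondrial UMIs). Doublets were called with Scrublet (scanpy 1.11.5) in each library and removed (61 of 4391 and 44 of 3374 cells, 1.39% and 1.30%, below prior rates of 3.51% and 2.70%, so some can remain). UMIs were summed per class and scaled to CPM. With 1 library per group no test between groups was run; a gene was called past 1.5-fold if the libraries together held at least 10 UMIs of it. Intervals were 95% (exact Poisson, Clopper-Pearson or conditional binomial, and approximate for the ratios of levels per Gcg UMI). They cover counting error only or, for shares of cells, the drawing of cells from 1 library. The log2 ratio, its interval and the 1.5-fold call were tested on simulated sums of beta cells, drawn with counting error only. The other steps were not tested this way. Tools were python 3.11.15, numpy 2.4.6, scipy 1.17.1, pandas 2.3.3, matplotlib 3.10.9, R 4.3.3 and edgeR 4.0.16 (TMM scaling, an alternative only). The 7 members were named in every class, beside Ins1, Ins2 and Iapp, with the 3 genes most alike to each. Some alpha and delta markers are not reported here and entered no count. Members, lists and limits were chosen with earlier results of these data known.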

Additional observations from a re-analysis of the deposited data

Results flagged for a closer look

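Several members had a summed ratio in hormone-led cells of opposite sign to that in beta cells, each outside its counting error; the differences were not tested, since each group was 1 library. On the log2 scale (multipara over virgin), Ppy was at 0.63 in Gcg-led cells against -1.28 in beta cells. Pyy was at 0.14 in Gcg-led and 0.034 in Ppy-led cells against -1.29. Rbp4 was at 0.11 in Sst-led cells against -0.93, but at -0.65 in Sst-led cells with the other hormones each under 1%. Only 4 virgin and 13 multipara Sst-led cells had Pyy under 1%, so the value of -0.65 came from no more cells than these. Gcg was at 0.12 in Ppy-led cells against -0.75, but at -0.61 for the median cell and -0.11 without the cell filter, and 95.9% and 97.5% of its UMIs there came from 27 and 29 cells. Only the value of Ppy in Gcg-led cells passed 1.5-fold. Gcg in Gcg-led cells (0.073 against -0.75), Sst in Sst-led cells (0.12 against -0.77) and Ppy in Ppy-led cells (0.10 against -1.28) were also of opposite sign, but these are levels of the hormone that chose the class and are given as a description only.

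Barcodes with at most 200 genes, which entered no comparison, held the hormones at a higher share than non-endocrine cells did. The 5 hormones took 0.799% of UMIs in 445 virgin and 0.739% in 524 multipara barcodes, against 0.237% and 0.199% in non-endocrine cells. Gcg made up 65.0% and 57.6% of these hormone UMIs and Ppy 19.6% and 24.6%, and insulin took 4.22% and 8.67% of all UMIs. Mitochondrial genes took a median of 88.0% and 78.5% of the UMIs of these barcodes, against 4.57% and 4.25% in non-endocrine cells; the part of RNA quality was not tested.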

How the results depend on the processing

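No paired analysis was possible because each group was a single library. The number of members lower by over 1.5-fold in beta cells stayed between 5 and 7 under 9 other settings chosen at the start (5 with insulin at 40% or more and 5 with each cell weighted equally). Of the 9, dropping the minimum of 10 UMIs could not change the count, because every member already had at least 10. The number was 2 of 5 for the median cell, and none was higher under any setting. With each cell weighted equally Gcg turned to 0.18; without cells under 5000 UMIs, with cells summed, it was -0.78. TMM scaling moved beta cell values up by 0.11, after which Ttr did not pass, at -0.55, and it turned Ttr in Gcg-led cells to 0.05 and Ttr and Rbp4 in Ppy-led cells to 0.10 and 0.05. Keeping doublets gave -0.80 for Ppy and -1.13 for Gcg. The percent of beta cells with another hormone at 1% or more became 9.69 (virgin) and 7.69 (multipara) with doublets kept, and 8.57 and 8.65 without the cell filter, which turned the order of the libraries. It became 3.59 and 3.396 with insulin at 40% or more, 9.78 and 9.69 at a limit of 0.5%, and 3.11 and 2.68 at 5%. In the multipara library it was 4.27 thinned to 5000 UMIs and 4.20 in cells of at least 5000 UMIs, an alternative chosen, like the median cell, after seeing the data. Carry-over became 0.425% and 0.204% without the cell filter and 0.317% and 0.266% with equal weights, and 0.244% in the virgin library with 2 markers needed. In hormone-led cells 2 of 19 values were past 1.5-fold. This became 4 of 19 without the cell filter and 4 of 18 for the median cell. It became 5 of 12 where the other hormones were each under 1% (also chosen later). Of those 5, Ppy, Rbp4 and Ttr in Sst-led cells came from at most 4 virgin and 13 multipara cells, and the interval of Ttr included 0 (-0.97 to 7.20). The share over all genes was not computed for the alternatives. Ppy in Gcg-led cells was past 1.5-fold in each of the 8 alternatives (0.61 to 1.18). The causes were not tested.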

Other observations

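The carried-over hormones were ordered differently from insulin between the libraries. In non-endocrine cells the log2 ratio of Ins1 was 1.29 (1.26 to 1.33), that of Ins2 1.21 (1.19 to 1.23) and that of Iapp 1.03 (0.98 to 1.09), while Gcg was at -0.41. In Sst-led cells the log2 ratio of Ins1 was 1.04 and that of Ins2 0.85, and in Gcg-led cells 0.81 and 0.74. The cells just outside the insulin limit of beta cells, at 15% to 20% of UMIs, were 18 virgin and 41 multipara cells with median depths of 2507 and 856 UMIs and 21.5 and 49.0 Gcg UMIs per 10000. Those just inside, at 20% to 25%, were 24 and 32 cells with median depths of 3500 and 725 UMIs and 21.3 and 53.7 Gcg UMIs per 10000.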
